A study of Mus musculus with 7 samples.

Results

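The 9 genes described here encode glutathione peroxidases (Gpx1, Gpx2, Gpx3, Gpx4 and Gpx6), catalase (Cat) and the superoxide dismutases (Sod1, Sod2 and Sod3). They were taken by symbol from 24328 gene symbols measured by RNA-seq in mouse kidney, and all 9 were found. Kidneys came from 3 LBR-null mice (4001, 4002 and 4007), homozygous for the ichthyosis allele (Lbric-J/ic-J) and so lacking the lamin B receptor, an inner nuclear membrane protein that tethers heterochromatin to the nuclear lamina. They were compared with 1 WT littermate (4009, Lbr+/+). All 4 mice had the C57BL/6J background and were 4 weeks old, no other allele or agent is given, and RNA was made from the whole right kidney. There were 2 libraries from each of mice 4001, 4007 and 4009 but 1 from mouse 4002, so the replicate is the mouse and the WT side has a single animal. The genes were chosen by their normalized counts in these libraries and the difference in them between LBR-null and WT, seen beforehand. Their differences are therefore given as a description, with no test.

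The products of these genes dispose of reactive oxygen in sequence. Superoxide dismutases turn superoxide into hydrogen peroxide: Sod1, with copper and zinc, in the cytosol, Sod2, with manganese, in mitochondria, and Sod3, with copper and zinc, outside cells. Catalase breaks down hydrogen peroxide in peroxisomes, and glutathione peroxidases reduce hydrogen or lipid peroxides at the expense of glutathione. The plasma glutathione peroxidase Gpx3 is made mainly by kidney tubules, Gpx1 is the common cytosolic form, Gpx2 is a form of the gut epithelium and Gpx4 reduces lipid peroxides in membranes. Most of these peroxidases carry selenocysteine, which is read from a TGA codon that would otherwise end translation.

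The mouse coding sequences show which glutathione peroxidases have this codon, and they are given because selenium is built into an enzyme only through it. In the lines that follow, the catalytic codon stands in capitals with 12 coding bases on each side, 5′ to 3′, from GENCODE vM1 transcripts of NCBIM37 (mm9).
Gpx1, codon 47: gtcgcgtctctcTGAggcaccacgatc
Gpx2, codon 40: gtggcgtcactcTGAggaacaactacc
Gpx3, codon 73: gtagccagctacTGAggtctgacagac
Gpx4, codon 129: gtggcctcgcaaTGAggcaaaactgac
Gpx6, codon 73: gtggcatccttcTGTggcctgacagct
Gpx1, Gpx2, Gpx3 and Gpx4 each had 1 TGA in frame. Codons are numbered in the longest complete coding sequence, for Gpx4 that of transcript Gpx4-002 (762 bp), and shorter forms may number the codon differently. Mouse Gpx6 had none, and the aligned codon was the cysteine codon TGT. No in-frame TGA was found in Cat, Sod1, Sod2 or Sod3. Gpx6 (chr13:21404086-21411493, plus strand) lies beside Gpx5 (chr13:21378298-21384600, minus strand), a secreted cysteine form known from the epididymis, with 19485 bp between them.

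The start regions also differed between these genes. CpG islands, stretches of GC-rich sequence that mark many broadly used promoters, were sought within 500 bp of coding starts in mm9. By sequence alone they were called at 7 of the 9 genes and not at Gpx6 and Sod3, while 67.7% of 22232 coding genes had one. The calls at Gpx3 and Gpx2 rested on 25 and 35 passing sequence windows, and those at the others on 316 (Cat) to 754 (Sod1). The paper also required regions bound by a CxxC domain, which were not used here. Whether Gpx2 and Gpx3 are island genes by its definition was not tested. The observed over expected CpG ratio of the 1 kb around the start ran from 0.947 at Sod1, 0.831 at Sod2, 0.723 at Gpx4 and 0.698 at Gpx1 through 0.549 at Cat and 0.443 at Gpx3 to 0.249 at Gpx2, 0.196 at Sod3 and 0.0841 at Gpx6. Promoter sequences of RefSeq (GRCm38.p6, 250 bases before to 50 after the start) were matched for 8 genes, not for Sod3. The 3 printed here are the gene with the most reads, the gene farthest above WT and a gene near the WT level, each 5′ to 3′ on the strand of the gene, with each CG in capitals.
Gpx3, chr11:54902604-54902903, plus strand: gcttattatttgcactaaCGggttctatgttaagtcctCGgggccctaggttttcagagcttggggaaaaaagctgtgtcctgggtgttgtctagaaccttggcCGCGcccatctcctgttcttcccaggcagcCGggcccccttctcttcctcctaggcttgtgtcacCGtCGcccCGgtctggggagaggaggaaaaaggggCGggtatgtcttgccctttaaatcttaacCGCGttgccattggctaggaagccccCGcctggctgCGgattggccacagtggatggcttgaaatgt
Gpx6, chr13:21311953-21312252, plus strand: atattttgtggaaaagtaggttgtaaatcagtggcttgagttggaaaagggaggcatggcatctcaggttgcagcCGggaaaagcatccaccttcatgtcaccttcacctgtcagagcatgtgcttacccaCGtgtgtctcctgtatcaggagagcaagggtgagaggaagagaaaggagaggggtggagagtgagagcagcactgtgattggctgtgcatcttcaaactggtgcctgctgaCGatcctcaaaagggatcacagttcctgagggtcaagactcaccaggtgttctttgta
Sod1, chr16:90220512-90220811, plus strand: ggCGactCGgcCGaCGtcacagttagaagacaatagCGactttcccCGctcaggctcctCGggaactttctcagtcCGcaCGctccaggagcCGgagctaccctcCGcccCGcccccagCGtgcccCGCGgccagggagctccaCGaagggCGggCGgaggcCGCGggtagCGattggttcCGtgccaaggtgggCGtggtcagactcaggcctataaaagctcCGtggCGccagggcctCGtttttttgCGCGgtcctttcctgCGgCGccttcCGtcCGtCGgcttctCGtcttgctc
These windows held 13, 3 and 34 CG dinucleotides, and the median of 32851 promoters was 7. The letters TGACNNNGC, the core of the antioxidant response element, were sought on both strands. They occurred in the window of Sod1 and in no other window of the 8 matched genes, and in 12.4% of all promoters.

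Some facts of the libraries bear on all values. The deposited values are read counts divided by a size factor, called normalized counts below, and the libraries held 20694016 to 26333284 reads on genes. Over 17283 genes with a mean of at least 5 normalized counts, limma called 0 genes with both a 2-fold change and an adjusted p within 0.05. Before adjustment, 1852 genes (10.7%) on the higher side and 1391 (8.05%) on the lower side had p under 0.05. From the recovered reads edgeR called 1 gene higher (0.00579%) and 27 lower (0.156%), and DESeq2 533 (3.08%) and 576 (3.33%). The limma count rested on which mice entered: it was 505 higher and 658 lower without mouse 4001, and 338 and 287 without mouse 4002. These fits give the lone WT mouse the spread of the LBR-null mice. Lbr itself had 322, 340 and 471 normalized counts in mice 4001, 4002 and 4007 and 398 in the WT mouse, so its transcript level did not separate the genotypes. Xist, read from the inactive X chromosome, had 5785, 65.3 and 9940 normalized counts in the LBR-null mice and 35.5 in the WT mouse, and the Y-linked Ddx3y had 141, 1516 and 44.3 against 1284. Mouse 4002 thus resembled the WT mouse in these genes and mouse 4007 did not. Mouse 4001 held reads of both kinds, mouse 4007 held some Ddx3y reads beside Xist, and the labels give no sex. The Y-linked Eif2s3y had 156, 2420 and 54.0 normalized counts in the LBR-null mice against 1477. In mice 4001 and 4007 the genotype difference cannot be told apart from this sex-linked one. Whether the kidney of mouse 4001 or 4007 held material of another animal was not tested. Without mouse 4001 the log2 fold change was 0.81 for Gpx3, 1.14 for Gpx6, -0.82 for Cat, -0.59 for Sod2 and -1.08 for Sod3. Mouse 4002 alone had 0.57 for Gpx3, 1.12 for Gpx6, -0.71 for Cat, -0.43 for Sod2 and -0.78 for Sod3 against the WT mouse.

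The 9 genes spread to both sides of the WT mouse. Every LBR-null library lay above both WT libraries for 2 genes, Gpx3 and Gpx6, where 25.5% of all tested genes did so. Every LBR-null library lay below both WT libraries for 3 genes, Cat, Sod2 and Sod3, where 25.7% of all tested genes did so. The libraries overlapped for the other 4. Among 7752 abundant genes, with a mean of at least 500 like the 8 measurable ones here, these shares were 24.5% and 27.6%. Only Gpx6 was 2-fold higher in the mean of the LBR-null mice (12.8% of tested genes) and only Sod3 was 2-fold lower (7.54%), shares that were 3.57% and 3.79% among the abundant genes. The median log2 fold change of the 8 genes that passed the filter was -0.21, and that of all tested genes was 0.01. With mouse 4001 left out Gpx4 and Sod1 were also below WT throughout, 5 genes in all, and with mouse 4002 left out Gpx1 was also above WT throughout, 3 genes in all, and Gpx3 also passed 2-fold, 2 genes in all. With mouse 4007 or the first WT library left out 0 genes were 2-fold lower. Fewer libraries separate from WT more easily, and the shares of all tested genes are not given for these reduced sets. These values chose the genes, so nothing is read from the counts.

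**Figure D1:**
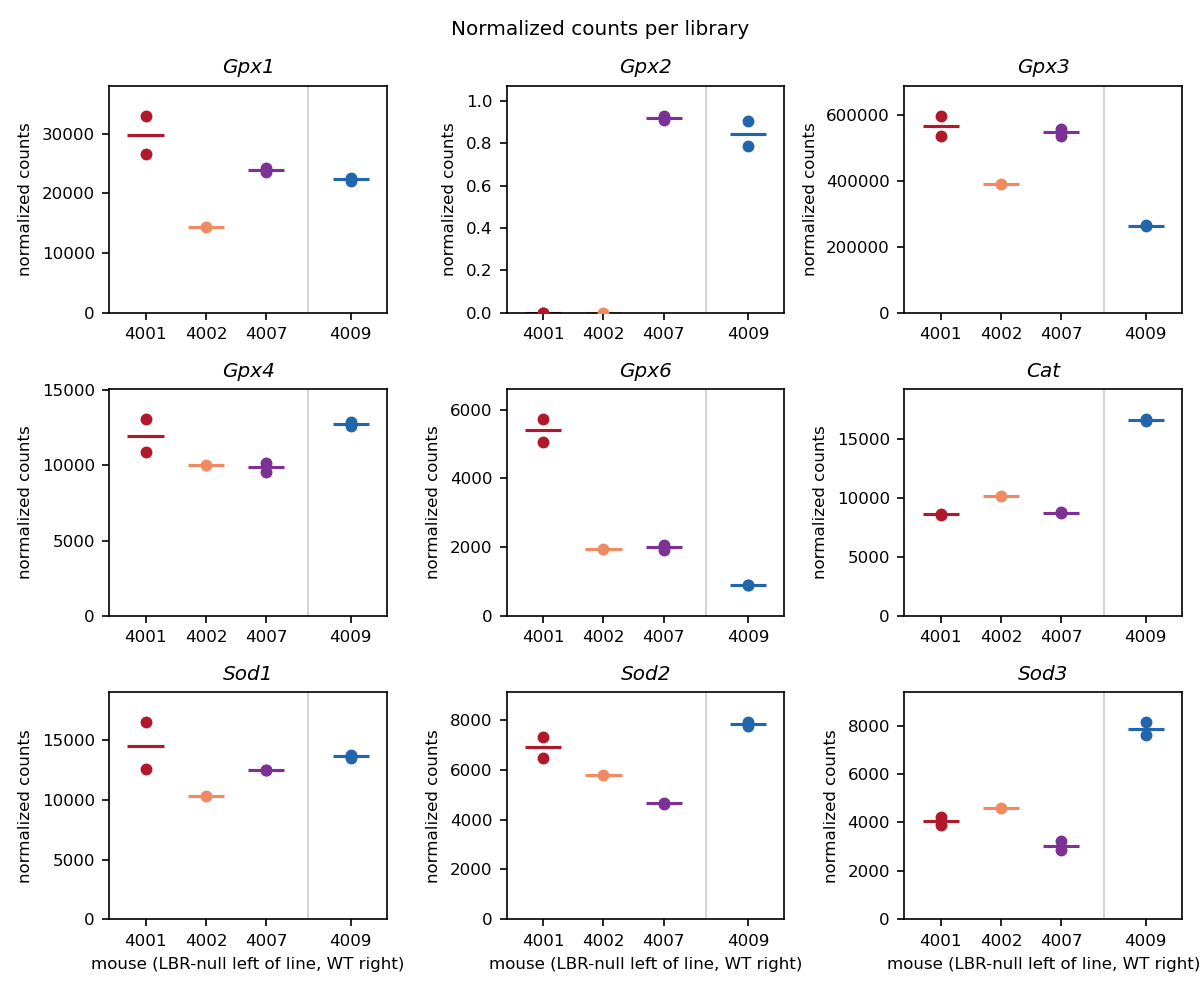
Normalized counts of the 9 genes (vertical axes, from 0, each gene on its own scale) in each library, by mouse, with LBR-null mice left of the grey line and the WT mouse right of it; points are libraries and bars are mouse means. Gpx3 and Gpx6 sit above the WT libraries in all 5 LBR-null libraries, Cat, Sod2 and Sod3 sit below them, and Gpx2 is at 0 or 1 read throughout.

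Gpx3 (chr11:54715955-54723879, mm9, plus strand), the plasma form, had the most reads of all genes in each of the 5 LBR-null libraries and the second most in both WT libraries, counted without regard to gene length. It had 598439 and 535095 normalized counts in the libraries of mouse 4001, 391446 in that of mouse 4002, 535704 and 559058 in those of mouse 4007, and 265238 and 263896 in the WT libraries. The groups did not overlap, and mouse 4002 was the lowest of the LBR-null mice. The LBR-null mean was 501865 ± 96116 (SD, n = 3) against 264567 in the WT mouse, 1.90 times as high, with ratios of 2.14, 1.48 and 2.07 for mice 4001, 4002 and 4007. As a share of reads on genes, Gpx3 took 1.98% to 2.80% of an LBR-null library and 1.27% to 1.28% of a WT library, resting on at least 291714 reads in each. Counting error at this depth is far below the difference between mice.

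Gpx6 (chr13), the cysteine form known mainly from olfactory tissue, was the farthest above WT. Its libraries had 5738 and 5071 normalized counts in mouse 4001, 1959 in mouse 4002, 2075 and 1921 in mouse 4007, and 901 and 897 in the WT mouse. All LBR-null libraries were higher than the WT ones, but mouse 4001 stood well above the other LBR-null mice. The mouse ratios to WT were 6.01, 2.18 and 2.22, and the mean log2 fold change was 1.62 ± 0.84 (SD, n = 3). Without mouse 4001 it was 1.14. The highest LBR-null mouse had 2.76 times the level of the lowest, the widest ratio among the 8 genes above the filter.

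Gpx1 (chr9:108241607-108242671, plus strand), the common cytosolic enzyme, varied between LBR-null mice, which lay on both sides of the WT mouse. It had 33065 and 26553 normalized counts in mouse 4001, 14338 in mouse 4002, 24334 and 23660 in mouse 4007, and 22167 and 22640 in the WT mouse. Mouse 4001 was above the WT level and mouse 4002 below it. The LBR-null mean of 22715 ± 7815 (SD, n = 3) was 1.01 times the WT value of 22403, and the SD was larger than the difference.

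Gpx4 (chr10:79509911-79519184, plus strand), which reduces lipid peroxides, lay slightly below WT on average. The LBR-null libraries had 13081, 10843, 10042, 9552 and 10178 normalized counts and the WT libraries 12570 and 12878. The first library of mouse 4001 exceeded both WT libraries, so the groups overlapped. The mean was 10623 ± 1163 (SD, n = 3) against 12724, a log2 fold change of -0.27 ± 0.15.

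Gpx2 (chr12:77893322-77896541, minus strand), the gut form, was not measurable. It had 0 reads in the libraries of mice 4001 and 4002 and 1 read in each library of mouse 4007 and of the WT mouse. A count of 0 allows up to 3 reads, which is 2.58 to 3.44 normalized counts in those libraries. No difference was detectable at this depth. The pseudogene Gpx2-ps1 had 7.84 ± 0.860 (SD, n = 3) normalized counts in the LBR-null mice and 0.846 in the WT mouse, where it rests on 1 read per library. Both counts are uncertain where the counting could not tell the copies apart, which was not tested.

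Catalase (Cat, chr2:103294006-103325317, minus strand) was lower in every LBR-null mouse, with little spread between them. It had 8549 and 8654 normalized counts in mouse 4001, 10144 in mouse 4002, 8764 and 8693 in mouse 4007, and 16474 and 16683 in the WT mouse. The groups were far apart, and mouse 4002 lay closest to WT. The LBR-null mean was 9158 ± 856 (SD, n = 3), 55.2% of the WT level of 16579, and the log2 fold change of -0.86 ± 0.13 had the smallest SD of the 8 genes. In all 7 libraries together Cat rested on 7445 to 20919 reads.

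Among the superoxide dismutases, the extracellular Sod3 (chr5:52755185-52762644, plus strand) was the farthest below WT. Its libraries had 4200 and 3880 normalized counts in mouse 4001, 4580 in mouse 4002, 2865 and 3217 in mouse 4007, and 8148 and 7597 in the WT mouse. No LBR-null library came near the WT libraries, and mouse 4007 was lowest. The mice stood at 51.3%, 58.2% and 38.6% of the WT level, with a mean of 3887 ± 781 (SD, n = 3) against 7873 and a log2 fold change of -1.04 ± 0.30. That mean was past 2-fold only narrowly: without mouse 4007 it was -0.87 and without the first WT library -0.99.

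The mitochondrial Sod2 (chr17:13200705-13210985, plus strand) had 7341 and 6481 normalized counts in mouse 4001, 5819 in mouse 4002, 4685 and 4627 in mouse 4007, and 7780 and 7933 in the WT mouse. All LBR-null libraries were lower, but the first library of mouse 4001 reached almost to the WT range. The mean of 5795 ± 1128 (SD, n = 3) was 73.8% of the WT value of 7856. The cytosolic Sod1 (chr16:90220987-90226567, plus strand) had 16550 and 12590 normalized counts in mouse 4001, 10369 in mouse 4002, 12508 and 12524 in mouse 4007, and 13547 and 13808 in the WT mouse. These overlapped, and the mean of 12485 ± 2101 (SD, n = 3) differed from the WT value of 13677 by less than 1 SD.

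**Figure D2:**
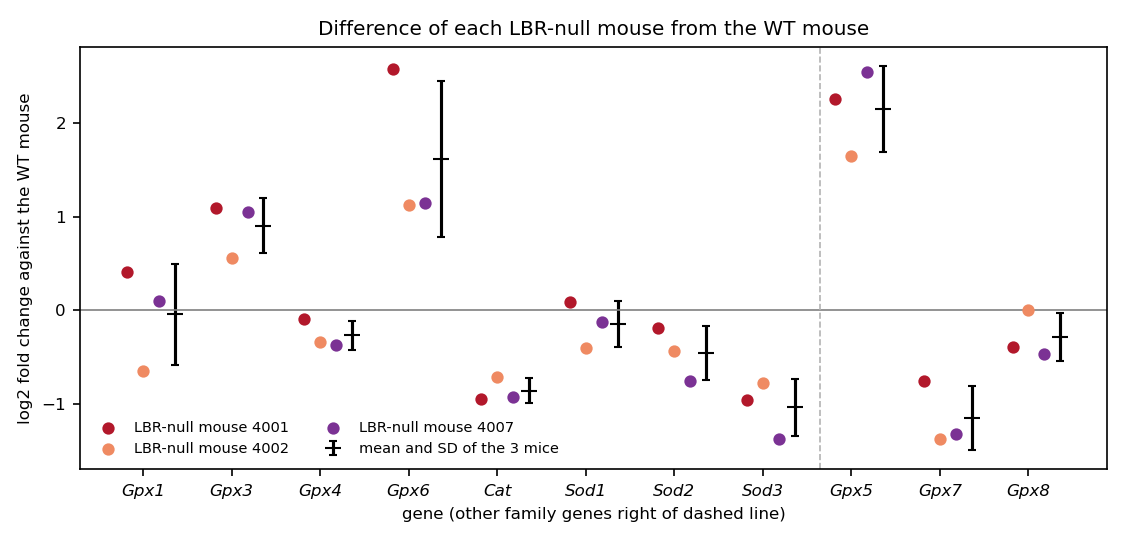
Log2 fold change (vertical axis, log2 of normalized counts + 1) of the 3 LBR-null mice, each set against WT, for the 8 genes above the filter and, right of the dashed line, for Gpx5, Gpx7 and Gpx8; coloured points are mice, and black bars are the mean and SD of the 3 mice. Gpx3 and Gpx6 are above 0 and Gpx4, Cat, Sod2 and Sod3 below 0 in all 3 mice, while Gpx1 and Sod1 have mice on both sides.

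Repeat libraries differed more in mouse 4001 than in the other mice for several of these genes. The libraries of mouse 4001 differed by 27.2% for Sod1, 21.8% for Gpx1 and 18.7% for Gpx4 but by 1.22% for Cat. In mouse 4007 the libraries differed by 0.134% for Sod1 and 2.81% for Gpx1, and in the WT mouse by 1.90% and 2.11%. For Gpx1, Gpx4 and Sod1 the first library of mouse 4001 was the highest of all 7. Mouse 4002 was the lowest LBR-null mouse for Gpx1, Gpx3, Gpx6 and Sod1 and the highest for Cat and Sod3.

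Levels can be compared between genes only per length, so normalized counts were divided by the kilobases of exon of each gene. In the WT mouse the order of levels was Gpx3 at 145928 normalized counts per kilobase, Gpx1 at 26450, Sod1 at 21172, Gpx4 at 7597, Cat at 6345, Sod3 at 2205, Sod2 at 2054, Gpx6 at 705 and Gpx2 at 0.793. The first 4 places were the same in all 4 mice. With the longest transcript as length Gpx4 was at 12788 in the WT mouse, and its place stayed the same. In the LBR-null mice Gpx6 reached place 5 in mouse 4001 and place 6 in mice 4002 and 4007, and Sod3 dropped behind Sod2 to place 8 in each. Gpx3 per kilobase was 8.88, 12.8 and 10.7 times the second gene, Gpx1, in mice 4001, 4002 and 4007 and 5.52 times in the WT mouse.

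Several neighbours in this order were not separated by the spread between mice. Gpx1 at 26818 ± 9226 (SD, n = 3) normalized counts per kilobase and Sod1 at 19327 ± 3252 overlapped between LBR-null mice, although Gpx1 was the higher in each mouse. Cat at 3505 ± 328 and Gpx6 at 2446 ± 1550 overlapped and changed places between mice. Sod2 at 1516 ± 295 overlapped with both Gpx6 and Sod3, the latter at 1089 ± 219. Gpx3, and Gpx4 at 6342 ± 694, did not overlap with their neighbours.

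**Figure D3:**
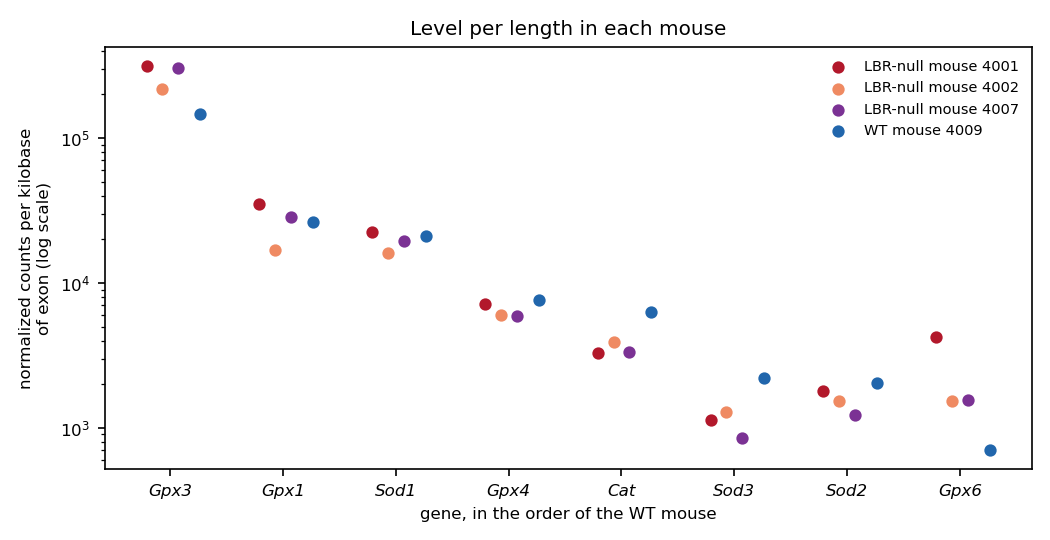
Normalized counts per kilobase of exon (vertical axis, log scale) of 8 genes in each mouse, in the order of the WT mouse along the horizontal axis, with each point the mean of the libraries of 1 mouse; Gpx2, at 0.864 or less, is not drawn. Gpx3 stands apart from all others in each mouse, and Gpx6 is last in the WT mouse but level with or above Sod2 in the LBR-null mice.

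The balance between these enzymes was also taken within libraries, where the size factor cancels. Gpx3 made up 87.1% to 89.6% of the summed normalized counts of the 9 genes in LBR-null libraries and 76.2% to 76.5% in WT libraries. The other 8 genes together took 0.290% to 0.373% of the reads of an LBR-null library and 0.393% and 0.397% of a WT library, which did not overlap, whereas their summed normalized counts, at 57251 to 88523 against 81588 and 82437, did. The ratio of Gpx3 to Cat was 38.6 to 70.0 in LBR-null libraries and 15.8 and 16.1 in the WT libraries. With Gpx3 above and Cat below WT throughout, this ratio could only separate the groups. The ratio of Gpx6 to Gpx3 was 0.00344 to 0.00959 in LBR-null libraries, lowest in mouse 4007, and 0.00340 in both WT libraries. Relative to Sod1, Sod3 had a ratio of 0.229 to 0.442 against 0.550 and 0.601, Cat 0.517 to 0.978 against 1.21 and 1.22, and Sod2 0.369 to 0.561 against 0.574 and 0.575.

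Whole kidney RNA mixes cell types, and markers of several of them also differed from WT, on the same side as some of these genes and opposite to others. Fewer cells of a type and less RNA per cell cannot be told apart in bulk RNA. Of 13 markers of the proximal tubule, which reabsorbs most of the filtrate and in which Gpx3 and Cat are well expressed, 10 lay below WT in every LBR-null library and 3 above, where 25.7% and 25.5% of all tested genes did so, with a median log2 fold change of -2.02. Their summed level was 195829 to 350046 normalized counts in LBR-null libraries and 609914 to 629301 in WT libraries. Of these, Kap, an androgen-regulated tubule gene, had 128162, 205800 and 59162 normalized counts in mice 4001, 4002 and 4007 and 357146 in the WT mouse. Of the tested markers of smooth muscle and mesangium, vessel-related cells of the kind that make Sod3, 4 of 4 lay below WT, with a sum of 5786 to 7509 against 12236 to 12468 normalized counts. Ren1 was listed at 0 throughout. Neutrophil markers lay above WT for 6 of 7 (25.5% of all tested genes), with sums of 382 to 2469 against 76.9 to 83.5, and Elane was not among those tested. The part of these markers in the values of the 9 genes was not tested, and the same holds for the sex-linked genes.

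Gpx6 and Sod3 were at the ends of the differences, so the genes closest to them in profile were sought. The measure is the root mean square distance of log2 profiles over the 7 libraries, each centred on its mean, among 13066 genes with a mean of at least 50 normalized counts. For Gpx6 the closest were Eno3 (0.152), Trf (0.173), Apoa2 (0.192), Pygl (0.199) and Pck1 (0.207). Their likeness to Gpx6, the high level in mouse 4001 included, is what chose them. Pck1, a gluconeogenic enzyme of the proximal tubule, had 188628 and 187779 normalized counts in mouse 4001, 87425 in mouse 4002, 98522 and 100733 in mouse 4007, and 39215 and 39020 in the WT mouse. For Sod3 the closest were Calm3 (0.0463), Gnpda1 (0.0623), Gatb (0.0655), Tmem143 (0.0695) and Afm (0.0741). Genes near Sod3 were thus closer to it than those near Gpx6, and the 7 libraries come from only 4 mice.

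The remaining genes of the glutathione peroxidase family carry cysteine and sit in the secretory pathway or outside cells. Gpx5, the neighbour of Gpx6, had 10.3 and 24.8 normalized counts in mouse 4001, 11.2 in mouse 4002, 22.4 and 21.0 in mouse 4007, and 3.94 and 1.81 in the WT mouse. All LBR-null libraries were higher, at low counts, and the mouse mean of 16.8 ± 5.28 (SD, n = 3) against 2.87 had an adjusted p of 0.137 by limma. Gpx7, an oxidant sensor of the endoplasmic reticulum, had 113 ± 28.4 against 247 normalized counts (adjusted p = 0.184 by limma) and lay below WT in every library. Gpx8, its membrane-bound relative, overlapped between groups at 713 ± 131 against 859.

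Genes that work with these enzymes were grouped in 9 lists with 113 names, of which 112 were in the files and 111 were tested. Every LBR-null library lay above WT for 23 of the 111 and below WT for 47, where the shares of all tested genes were 25.5% and 25.7%. The median log2 fold change was -0.17, 14 genes were 2-fold higher and 14 2-fold lower, where 12.8% and 7.54% of all tested genes were. Of the 111, limma called 0 and DESeq2 called 6 higher and 11 lower, where it called 3.08% and 3.33% of all tested genes. Peroxiredoxins, which reduce the same peroxides with thioredoxin, lay below WT in 5 of 6, with a median of -0.47. Prdx1, in the cytosol, had 9539 ± 1505 (SD, n = 3) against 13095 normalized counts, and Prdx4, in the endoplasmic reticulum, 520 ± 82.2 against 813. None of the 6 had an unadjusted p under 0.05.

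The thioredoxin system split into 6 genes below WT and 3 above, where 25.7% and 25.5% of all tested genes did so. Thioredoxin itself, Txn1, had 7302 ± 1837 (SD, n = 3) against 11906 normalized counts, and its reductase Txnrd1 had 1980 ± 442 against 2752. The thioredoxin inhibitor Txnip was on the other side. It had 44338 and 41103 normalized counts in mouse 4001, 17824 in mouse 4002, 39265 and 38298 in mouse 4007, and 7427 and 7317 in the WT mouse, with an adjusted p of 0.136 by limma and 0.00103 by DESeq2.

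Of the 18 genes that make, reduce or break down glutathione, 5 lay above WT and 10 below, where 25.5% and 25.7% of all tested genes did so. Their median log2 fold change was -0.42. Gclc, the catalytic subunit of the rate-limiting step of glutathione synthesis, had 10909, 6988 and 9625 normalized counts in mice 4001, 4002 and 4007 and 3917 in the WT mouse, with an adjusted p of 0.142 by limma and 0.0197 by DESeq2. Glutathione reductase, Gsr, overlapped at 2675 ± 565 (SD, n = 3) against 2944. Malic enzyme Me1, a source of the NADPH that Gsr uses, had 1347, 1205 and 793 against 5347 normalized counts, a log2 fold change of -2.30 with an adjusted p of 0.0843 by limma, 0.0641 by edgeR and 9.9e-07 by DESeq2. The cystine importer Slc7a11 was low throughout, at 34.5 ± 24.7 against 11.7, and its highest value was in mouse 4002.

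Of 11 genes of selenium supply, 1 lay above WT, 5 below and 5 overlapped, where 25.5% and 25.7% of all tested genes lay above and below. The median log2 fold change was -0.01, and it was -0.11 to -0.09 without mouse 4002, mouse 4007 or either WT library. Sepp1, which encodes the selenium carrier selenoprotein P, overlapped at 17123 ± 7037 (SD, n = 3) against 12350 normalized counts. Lrp2, the tubular receptor that takes it up, had 11985, 7019 and 5560 in mice 4001, 4002 and 4007 against 23320, an adjusted p of 0.152 by limma and 0.0241 by DESeq2. Sephs2, which makes the selenium donor, was above WT at 6517 ± 1972 against 4034, and Secisbp2, which reads the selenocysteine signal, was at 733 ± 121 against 724.

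Among 12 other selenoproteins tested, 3 lay above WT and 4 below, where 25.5% and 25.7% of all tested genes did so. Dio1, the deiodinase that activates thyroid hormone in kidney and liver, lay farther below WT than any other gene of the 9 lists. It had 87.3 and 63.9 normalized counts in mouse 4001, 170 in mouse 4002, 70.8 and 39.2 in mouse 4007, and 3315 and 3283 in the WT mouse. The log2 fold change was -5.19 ± 0.83 (SD, n = 3), with an adjusted p of 0.0675 by limma, 0.0475 by edgeR and 1.74e-14 by DESeq2. Dio3, which inactivates the hormone, was above WT at 14.9 ± 7.43 against 3.90 normalized counts, from few reads. The selenium enzymes therefore held both Gpx3, above WT, and Dio1, below it.

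Of 13 genes that deliver the metals of the dismutases, 3 lay above WT, 3 below and 7 on neither side, close to the shares of all tested genes (25.5% above and 25.7% below). Ccs, the copper chaperone of Sod1, had 3335 ± 387 (SD, n = 3) against 3198 normalized counts. The manganese importer Slc39a14 was below WT at 386 ± 30.7 against 609, and the metal-binding Mt2 was above it at 6678, 2411 and 3132 in mice 4001, 4002 and 4007 against 699. For peroxisomes, where catalase resides, 13 of 16 import and biogenesis genes overlapped, 3 lay below WT and none above, with a median log2 fold change of -0.06. Pex5, the receptor that imports catalase, had 1443 ± 84.9 against 1635, and Pex10 321 ± 36.7 against 437. These differences from WT were smaller than that of Cat, at log2 fold changes of -0.18 and -0.45 against -0.86.

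Oxidases that form hydrogen peroxide or superoxide lay on both sides, with 7 of 23 above WT and 10 below, where 25.5% and 25.7% of all tested genes did so. The peroxisomal D-amino acid oxidase Dao had 3546, 3818 and 3801 normalized counts in mice 4001, 4002 and 4007 and 7380 in the WT mouse, a log2 fold change of -0.99 ± 0.06 (SD, n = 3) with an adjusted p of 0.120 by limma and 0.00958 by DESeq2. The peroxisomal hydroxyacid oxidase Hao2 had 2664, 4558 and 1225 against 8502, an adjusted p of 0.219 by limma. Dao thus had nearly the same level in each LBR-null mouse, whereas Hao2 varied between them. The superoxide-forming Nox1 had 11.2 to 23.3 normalized counts in LBR-null libraries and 1 read in each WT library, too few for a ratio.

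**Figure D4:**
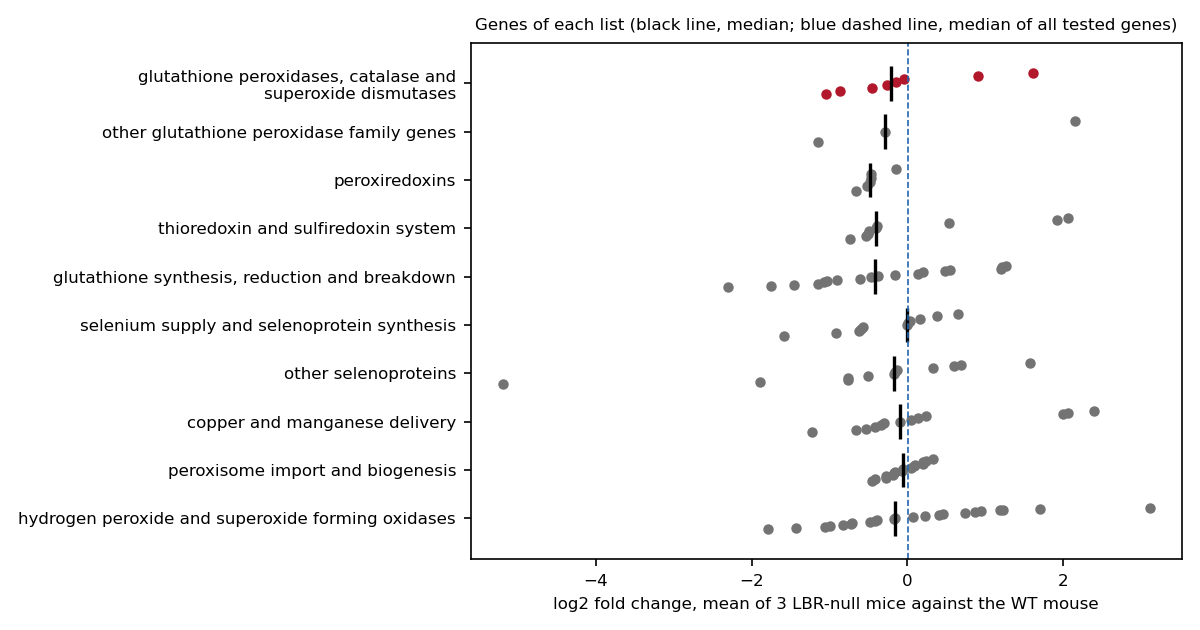
Log2 fold change (horizontal axis, mean of the 3 LBR-null mice against the WT mouse) of each tested gene (point) in the 9 genes described here (red) and the 9 lists of related genes (grey); black lines are list medians and the blue dashed line is the median of all tested genes, 0.01. Peroxiredoxins are all below 0, genes of peroxisome import lie close to 0, and Dio1 is the point at -5.19.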

How the data were processed

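Kidney RNA-seq of 7 libraries from 4 mice was used. Poly(A)-selected paired-end reads were aligned by the authors to mm9 with STAR 2.6.0. The counting program and gene annotation are not given in the sources used here. The values deposited are a signal per gene symbol, read counts divided by the DESeq2 1.25.1 size factor. They were whole multiples of 1 read within 0.01 read (100% of values in each library), so reads were recovered by division. The series text describes TRI Reagent lysis for the LBR-null kidneys and does not name the WT kidney at that step.

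Libraries were averaged within a mouse. Libraries of 1 mouse differed by more than counting noise (chi-square per degree of freedom 20.5, 3.36 and 2.93 in mice 4001, 4007 and 4009), so none was a duplicate. Genes with a mean of at least 5 were tested with limma 3.58.1 (R 4.3.3) on log2(normalized counts + 1), with Benjamini-Hochberg adjustment over 17283 genes. Fold changes are on that scale and understate those of low genes. edgeR 4.0.16 and DESeq2 1.42.0 on the recovered reads, other pseudocounts, scalings and filters, the first library of each mouse, and leaving out each mouse or WT library were alternatives. Kilobases of exon and CpG islands (201-base windows, GC of at least 50%, CpG ratio over 0.6) came from GENCODE vM1 and NCBIM37.

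The 9 genes and all lists were chosen with earlier results of these data known. The 9 genes are all named. From each list, the genes farthest above and below WT with no overlap of libraries are named, with a set of genes named for their role (Gpx5, Gpx7, Gpx8, Gsr, Gclc, Ccs, Sepp1, Secisbp2, Pex5, Txnrd1, Prdx1, Hao2, Dao and Lrp2) and the 5 genes closest in profile to the top and bottom of the 9. Marker genes are named outside this rule. Selv was not analysed here. The p-values rest on the spread between 3 mice.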

Additional observations from a re-analysis of the deposited data

Results flagged for a closer look

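In 35 sets of 5 LBR-null libraries, 1 set per named gene, a library far from the other 4 was found in 4 sets. Chance gives about 1 set in 20 for independent values, a rate that does not hold here because the 5 libraries come from 3 mice. Catalase (Cat) had 10144 normalized counts in mouse 4002 and 8549 to 8764 in the other LBR-null libraries. Txnip had 17824 in mouse 4002 and 38298 to 44338 in the others. Slc7a11 had 62.8 in mouse 4002 and 14.9 to 28.7 in the others. Ccs had 4274 in the first library of mouse 4001 and 3066 to 3287 in the others. Mouse 4002 has a single library, so its values have no repeat.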

How the results depend on the processing

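No paired analysis was possible because the numbers in the labels count libraries of 1 mouse and pair no mice. Over 17283 genes limma called 0 higher and 0 lower. Leaving out a mouse or a WT library in turn gave 0 to 505 higher (505 without mouse 4001, 338 without mouse 4002) and 0 to 658 lower (658 and 287), edgeR gave 1 and 27, and DESeq2 533 and 576. Among the 9 genes, those with all LBR-null libraries below WT numbered 3 to 5 (5 without mouse 4001), those 2-fold higher 1 to 2 (2 without mouse 4002) and those 2-fold lower 0 to 1 (0 without mouse 4007 or the first WT library) when 1 mouse or WT library was left out. The shares of all tested genes in these reduced sets are not given, so the counts have no baseline. Gpx3 over the second gene per kilobase in the WT mouse was 6.28 with the longest transcript as length and 5.52 with all exons. Over 13 alternatives the log2 fold change ran from 0.81 to 1.07 for Gpx3, 1.14 to 1.87 for Gpx6, -0.94 to -0.82 for Cat, -1.17 to -0.87 for Sod3, -0.59 to -0.31 for Sod2, -0.35 to -0.22 for Gpx4, -0.26 to -0.02 for Sod1 and -0.27 to 0.26 for Gpx1, which kept its sign in 11. Of the values for single genes and lists 214 moved by no more than their spread and 8 by more, all of them list medians. That of selenium supply, -0.01, lay between -0.12 and -0.09 in 5 alternatives (the first library of each mouse, or without mouse 4002, mouse 4007 or either WT library). Without mouse 4002 that of peroxisome import became 0.04 and that of the oxidases 0.02, and by DESeq2 the latter was -0.0088. No other scaling moved the median of all genes by more than 0.03 in log2. The cause of these changes was not tested. Depth limits the values of Gpx2, Gpx2-ps1, Gpx5, Dio3, Nox1 and Slc7a11, which rest on few WT reads, and the single WT mouse gives no spread for any gene.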

Other observations

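Other marker lists of kidney cells and blood were read for the same libraries, in which 25.5% of all tested genes lay above WT throughout and 25.7% below. Of 5 podocyte markers 4 lay below WT in every LBR-null library, with a median log2 fold change of -0.68. Thick ascending limb markers had 1 of 5 above and 1 below, distal convoluted tubule markers 1 of 4 above and 2 below, collecting duct markers 0 of 7 above and 1 below, and endothelial markers 1 of 5 above and 1 below. Macrophage markers had 1 of 8 above and 6 below, with a median of -0.64. Of 3 tested erythroid markers 2 lay below WT, and 3 globin genes were listed at 0 in all libraries. Hepatocyte markers had 3 of 6 above, with a median of 1.21, and adipocyte markers 3 of 5 below, with a median of -3.45.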
